A study of Mus musculus with 13 samples.

Results

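The Ly6 family consists of small, cysteine-rich proteins with the LU (Ly6/uPAR) domain, most of them held on the outer cell surface by a glycosylphosphatidylinositol anchor. In the mouse its genes lie in 2 main clusters. Ly6g6c, Ly6g6d, Ly6g6e and their neighbours sit in the class III region of the major histocompatibility complex on chromosome 17. Ly6a, Ly6c1, Ly6c2, Ly6d, Ly6e and Ly6g sit on chromosome 15, and Lypd8 lies on another chromosome. Several chromosome 15 members are markers of blood and vessel cells, several respond to interferon, and Lypd8 is a protein of gut epithelium that binds flagellated bacteria and keeps them out of the inner mucus.

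The 10 genes described here were listed by symbol. The list was chosen by the RMA values of Ly6g6c in the colon, which were lower in vancomycin-treated mice. A named probe set was found for 8 of the 10 members, out of 19505 genes on the array: Ly6g6c, Ly6g6d, Ly6g6e, Ly6c1, Ly6c2, Ly6d, Ly6e and Lypd8. Each had 1 probe set. Ly6a and Ly6g had no named probe set in the annotation used and are not analysed here. The tests reported here used no filter on low values, so all 8 entered them. An alternative that drops the dimmest probe sets leaves out Ly6g6e. Because colon values led to the list, the colon comparison of vancomycin with no antibiotic is a description for every member, with no test. The same holds for Ly6g6c in any comparison that includes colon arrays.

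All mice were FVB females with a syngeneic mammary carcinoma that expressed human HER2, so the controls bore the tumour too. Treated mice received vancomycin, a glycopeptide used against Gram-positive bacteria, in drinking water (200 mg/L) from an age of 4 weeks. Mice were killed at 9 weeks, with tumours of 150 mm3, and the labels do not say whether the 9 weeks are of age or of treatment. The 13 arrays comprised colon without antibiotic (4 arrays), colon with vancomycin (3), ileum without antibiotic (3) and ileum with vancomycin (3). The tissue was washed and frozen. Values are RMA log2 values per array. Differences are between group means on that scale, with the standard error (SE) from limma, and a test passed at a Benjamini-Hochberg adjusted p under 0.05. Because tissue and not sorted cells was measured, fewer cells of a type and less RNA per cell cannot be told apart.

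The tissue labels matched their markers. Car1, a colonocyte carbonic anhydrase, was at 16.05 to 17.42 in colon arrays and at 6.40 to 8.38 in ileum arrays. Sis, the sucrase-isomaltase of small intestine, was at 14.67 to 15.47 in ileum and 6.03 to 7.16 in colon. Replicate 11 of the vancomycin ileum stood apart: the mean over 9 B cell markers was 10.09 there and 7.21 to 7.96 in the remaining ilea. The mean over 12 ileal enterocyte markers was 13.48 there and 14.32 to 14.81 in the remaining ilea. Member values that rest on this array, and list changes in the ileum, are given with and without it. Overlap of list means is given as values only, since no share without overlap was computed for gene lists.

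The upstream sequences of 3 members are shown because the results turn on them: Ly6g6c as the gene that led to the list, and Ly6c1 and Ly6c2 as neighbouring copies that were read beside each other on every array. They are the 250 bases before the transcription start in RefSeq's GRCm38.p6 annotation, which held a window for 5 of the 8 measured members. That of Ly6g6c is on the plus strand at chr17:35067075-35067324. Capitals mark a TATA box (TATAAA, searched on both strands), present in 12.4% of 32851 windows of this length.
Ly6g6c: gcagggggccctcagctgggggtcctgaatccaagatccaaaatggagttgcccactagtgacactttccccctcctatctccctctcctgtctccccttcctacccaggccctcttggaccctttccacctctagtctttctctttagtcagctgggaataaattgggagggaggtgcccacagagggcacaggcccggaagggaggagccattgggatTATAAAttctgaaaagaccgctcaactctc
The Ly6c1 window is on the minus strand at chr15:75048838-75049087 and the Ly6c2 window on the minus strand at chr15:75111972-75112221. RefSeq lists 2 windows for each gene, and the pair shown is the one of the 4 pairs with the most identical bases. Capitals mark bases that differ from the other copy or have no partner in it in a global alignment.
Ly6c1: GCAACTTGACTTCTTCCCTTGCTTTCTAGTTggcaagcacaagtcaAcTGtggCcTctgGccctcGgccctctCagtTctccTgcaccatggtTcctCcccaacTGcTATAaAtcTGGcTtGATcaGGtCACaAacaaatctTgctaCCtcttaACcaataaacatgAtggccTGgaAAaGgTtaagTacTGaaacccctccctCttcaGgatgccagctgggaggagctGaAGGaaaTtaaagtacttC
Ly6c2: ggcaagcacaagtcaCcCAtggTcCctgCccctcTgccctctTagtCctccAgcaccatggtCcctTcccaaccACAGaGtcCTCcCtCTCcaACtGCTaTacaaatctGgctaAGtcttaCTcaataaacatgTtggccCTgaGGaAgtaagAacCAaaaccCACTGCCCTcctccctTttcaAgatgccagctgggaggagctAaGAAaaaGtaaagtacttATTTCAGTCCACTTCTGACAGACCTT
Of 216 aligned bases, 164 (75.9%) were identical in this best pair. TATAAA was found in 1 of the 2 Ly6c1 windows and in 0 windows of Ly6c2, Ly6g6d and Lypd8. The sequence TTCNNNGAA (the core of a STAT site, in 7.02% of all windows) was searched on both strands and had 0 matches in the windows of Ly6g6c, Ly6g6d, Ly6c1, Ly6c2 and Lypd8. A short interferon response motif, in 2.98% of all windows, had 0 matches in them too. This says only that those letters are not in these windows.

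Ly6g6c, a surface protein encoded among the MHC genes, was high in the colon without antibiotic and low everywhere else. Its values were 10, 9.19, 9.50 and 9.03 in the 4 colons without antibiotic and 7.57, 7.73 and 7.88 in the 3 vancomycin colons. The ilea without antibiotic were at 7.53, 7.55 and 7.36, and the vancomycin ilea at 7.19, 7.45 and 7.81. No array of another group reached the lowest colon without antibiotic, and the vancomycin ilea overlapped both other low groups. The vancomycin colons lay just above the ilea without antibiotic (lowest 7.57, highest 7.55).

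In group means, Ly6g6c stood at 9.43 ± 0.43 (SD, n = 4) in the colon without antibiotic, 7.73 ± 0.16 (n = 3) in the vancomycin colon, 7.48 ± 0.10 (n = 3) in the ileum without antibiotic and 7.48 ± 0.31 (n = 3) in the vancomycin ileum. The colon was thus higher than the ileum by 1.95 without antibiotic and by 0.24 with vancomycin. In the ileum, which the choice of the list did not use, vancomycin minus no antibiotic was 0.00 ± 0.23 (SE, limma adjusted p = 0.996), with a 95% interval from -0.48 to 0.49. In the colon, as a description, the difference was -1.70. Over the alternatives run, the ileal value lay between -0.16 and 0.15, with either sign.

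**Figure D1:**
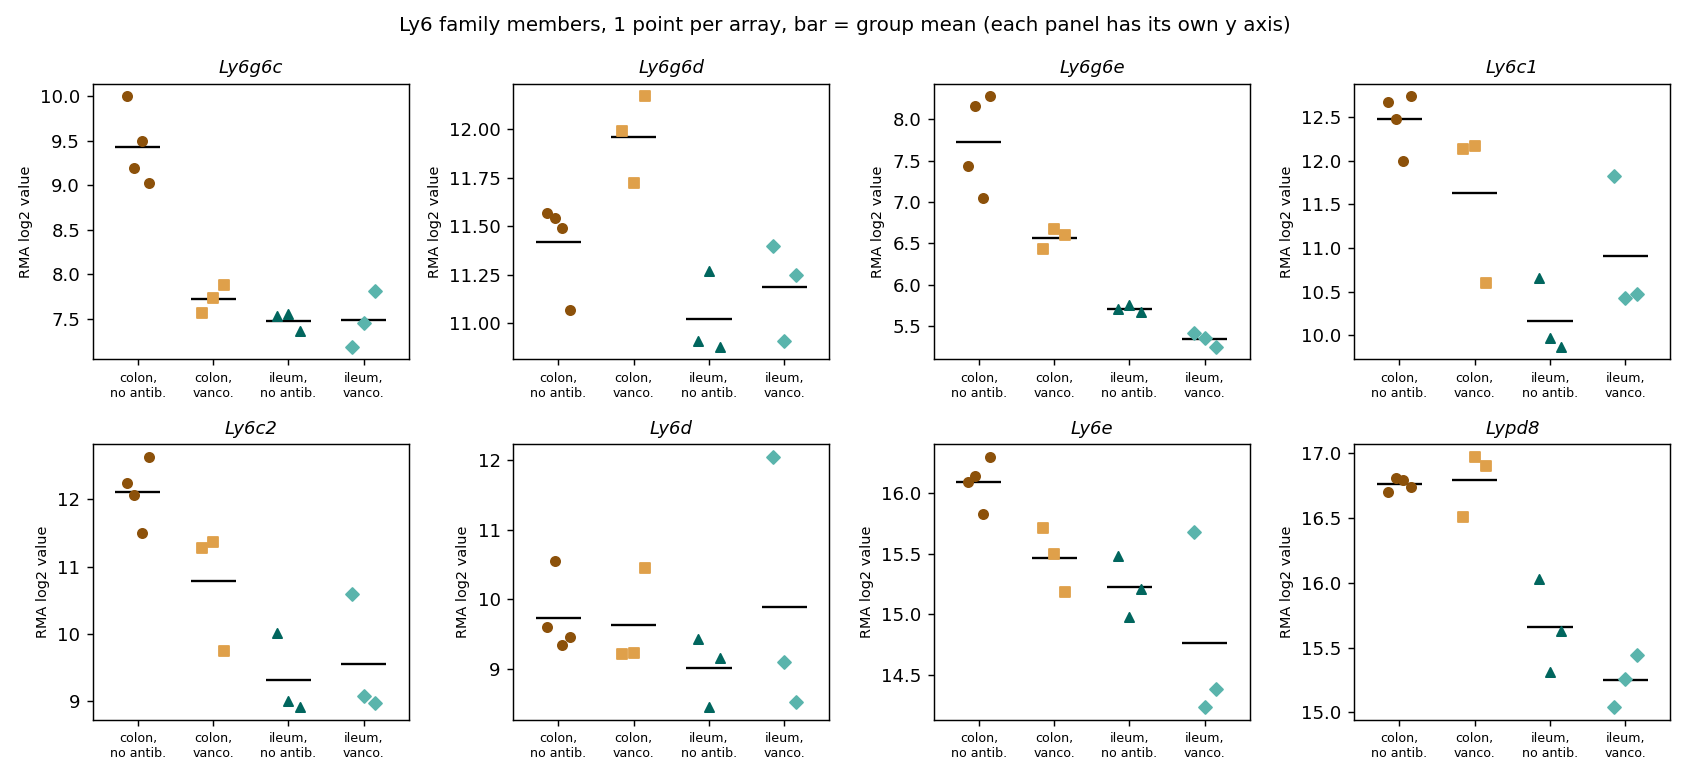
Each panel plots 1 Ly6 family member by group, with the RMA log2 value on the y axis (own range per panel), 1 point per array and a bar at the group mean. Ly6g6c is at 9.03 to 10 in the colon without antibiotic and at 7.19 to 7.88 elsewhere, while Ly6d, Ly6e and both Ly6c genes have 1 vancomycin ileum (replicate 11) above the other vancomycin ilea.

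The genes next to Ly6g6c did not share 1 pattern. Ly6g6e, a neighbour of the same family, was at 7.43, 8.16, 7.05 and 8.28 in the colon without antibiotic and at 6.43, 6.67 and 6.60 with vancomycin. In the ileum it was at 5.70, 5.75 and 5.67 without antibiotic and at 5.41, 5.35 and 5.25 with vancomycin. The groups did not overlap in either tissue, and each vancomycin group was the lower. The ileal difference was -0.37 ± 0.25 (SE, limma adjusted p = 0.648), which did not pass, and the colonic difference was -1.16.

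Ly6g6d, the other close neighbour, differed in the opposite direction in the colon. It was at 11.57, 11.54, 11.49 and 11.07 without antibiotic and at 11.99, 11.72 and 12.17 with vancomycin, a difference of 0.54, with no overlap. In the ileum the values were 10.91, 11.27 and 10.88 without antibiotic and 11.40, 10.91 and 11.25 with vancomycin. These ileal groups overlapped and differed by 0.17 ± 0.19 (SE, limma adjusted p = 0.801).

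The tissue difference of these 2 genes was tested. Ly6g6e was higher in colon than in ileum by 2.02 ± 0.24 without antibiotic (SE, limma adjusted p = 2.62e-05) and by 1.23 ± 0.25 with vancomycin (limma adjusted p = 0.00392). Ly6g6d was higher in colon by 0.77 ± 0.19 with vancomycin (limma adjusted p = 0.0115), a call lost without colon vancomycin replicate 14 (0.67, adjusted p = 0.0567) or ileum vancomycin replicate 13 (0.64, adjusted p = 0.0646). Without antibiotic its difference was 0.40 ± 0.18 (limma adjusted p = 0.143). Whether these tissue differences themselves changed with vancomycin was not tested, since that contrast contains the one that chose the list.

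Of the measured chromosome 17 genes outside the list, Ly6g6f followed the same order of group means as Ly6g6c and Ly6g6e in the colon. It was at 6.19 ± 0.03 (SD, n = 4) without antibiotic and 5.74 ± 0.18 (n = 3) with vancomycin, and at 5.29 ± 0.11 and 5.27 ± 0.45 (n = 3 each) in the ileum. Colon exceeded ileum without antibiotic by 0.91 ± 0.18 (SE, limma adjusted p = 0.00198). Ly6g5b, another chromosome 17 gene, named after its values were seen, did not follow that order. Its means were 4.50 without antibiotic and 4.52 with vancomycin in the colon, and 4.88 and 4.43 in the ileum.

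Squamous epithelium, which lies next to colon at the anal margin and expresses some Ly6 genes, was checked through 11 measured markers. The list mean was 6.12 to 6.65 in colons without antibiotic and 6.36 to 6.45 in vancomycin colons. In limma 0 of the 11 passed in that comparison, where 0.0102% of all probe sets did, so a count of 0 says little about a list there. Krt5, a basal keratin, was at 4.79 to 5.80 without antibiotic and 5.35 to 5.57 with vancomycin. The goblet cell list mean was 15.05 to 15.50 in colons without antibiotic and 13.81 to 14.95 in vancomycin colons, without overlap, and 0 of its 12 genes passed. Its part in the Ly6g6c values was not tested.

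Ly6c1 and Ly6c2 encode the Ly6C antigen of monocytes, plasma cells, memory T cells and endothelium. Both were higher in colon than in ileum without antibiotic. Ly6c1 was at 12.67, 12.48, 12.00 and 12.74 in the colon without antibiotic and 10.65, 9.97 and 9.87 in the ileum without antibiotic. Ly6c2 was at 12.24, 12.07, 11.50 and 12.63 in those colons and 10.02, 9.00 and 8.91 in those ilea. Neither gene's groups overlapped, with differences of 2.31 ± 0.40 for Ly6c1 (SE, limma adjusted p = 0.000820) and 2.80 ± 0.46 for Ly6c2 (limma adjusted p = 0.000493).

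With vancomycin the spread within groups was wider. Vancomycin colons were at 12.13, 12.17 and 10.60 for Ly6c1 and 11.27, 11.36 and 9.74 for Ly6c2, so that replicate 14 was the low array for both. Vancomycin ilea were at 11.83, 10.43 and 10.47 for Ly6c1 and 10.59, 9.07 and 8.98 for Ly6c2, with replicate 11 high for both. The ileal change was 0.75 ± 0.43 for Ly6c1 (SE, limma adjusted p = 0.581) and 0.24 ± 0.49 for Ly6c2 (limma adjusted p = 0.912). Without replicate 11 these became 0.29 and -0.28.

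Colon minus ileum under vancomycin was 0.72 ± 0.43 for Ly6c1 (SE, limma adjusted p = 0.316) and 1.24 ± 0.49 for Ly6c2 (limma adjusted p = 0.114). Ly6c2 passed with the replicate number as a block (adjusted p = 0.0245). It also passed without ileum replicate 11 (1.76, adjusted p = 0.0121) and without colon replicate 14 (1.77, adjusted p = 0.0264). Ly6c1 passed without ileum replicate 11 (1.18, adjusted p = 0.0485). Both passed with array weights. In the colon, vancomycin minus no antibiotic was -0.84 for Ly6c1, with overlapping groups, and -1.32 for Ly6c2, without overlap. Without colon vancomycin replicate 14 these were -0.32 and -0.80.

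The gap between the 2 genes was also read on each array. Ly6c1 minus Ly6c2 on 1 array was 0.43, 0.41, 0.50 and 0.11 in colons without antibiotic and 0.86, 0.81 and 0.86 in vancomycin colons. In ilea it was 0.63, 0.97 and 0.96 without antibiotic and 1.24, 1.36 and 1.49 with vancomycin. The gap did not overlap between treatments in either tissue and was the wider with vancomycin. Of single probe sets, 16.9% in the ileum and 12.3% in the colon had groups without overlap. No such share was computed for gaps between 2 genes. The ileal gap was 0.85 ± 0.19 without antibiotic and 1.36 ± 0.13 with vancomycin (SD, n = 3 each), for which a 2-sided exact permutation test gave p = 0.1, the smallest that 3 against 3 arrays can give. Groups of 3 without overlap always give this p, so it adds nothing to the values. These genes are close copies, and signal shared between them cannot be told apart here.

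Lists of cells known to carry Ly6C were read on the same arrays. In the ileum, replicate 11 of the vancomycin group had an endothelial list mean of 8.45, where the remaining ilea were at 7.34 to 7.65, and a monocyte list mean of 9.49, where they were at 8.56 to 8.70. The other vancomycin ilea had endothelial list means of 7.65 and 7.50, also above every ileum without antibiotic (7.34 to 7.42). Their monocyte list means of 8.56 and 8.61 were below every ileum without antibiotic (8.63 to 8.70). Of 9 endothelial and 9 monocyte genes, 0 passed in the ileal comparison in limma, with all arrays or without replicate 11. With all arrays 0.536% of all probe sets passed there. The median change was 0.59 for the endothelial list (0.26 without replicate 11) and -0.01 for the monocyte list (-0.15 without it). In the colon, the plasma cell list mean was 9.02 to 9.34 without antibiotic and 8.52 to 8.97 with vancomycin. In limma 0 of 9 genes passed, in a comparison where 0.0102% of all probe sets did. Between tissues without antibiotic, the endothelial list mean was 7.69 to 8.21 in colon and 7.34 to 7.42 in ileum, and the monocyte list mean 8.90 to 9.25 and 8.63 to 8.70. Both were higher in colon without overlap, the direction of Ly6c1 and Ly6c2, with 0 of 9 endothelial genes past the threshold and 2 of 9 monocyte genes higher and 1 lower in limma. Over all probe sets 11% were higher and 9.59% lower in colon in that comparison. In vancomycin colons the monocyte list mean was 8.78 to 8.85, below every colon without antibiotic, with 0 of 9 past the threshold. The endothelial list mean was 7.56 to 8.17 in those colons, overlapping the 7.69 to 8.21 without antibiotic. The T cell list mean overlapped too, at 7.61 to 8.12 in vancomycin colons and 7.57 to 8.09 in colons without antibiotic. The T cell list was lower in colon than in ileum without antibiotic (median of its 10 genes -1.49, 6 lower in limma), the opposite direction to Ly6c1 and Ly6c2. The plasma cell list mean also ran opposite, at 9.02 to 9.34 in colon and 9.59 to 9.76 in ileum without antibiotic. These groups did not overlap, and 1 of 9 genes was lower in limma. In vancomycin ilea the plasma cell list mean was 8.81 to 9.40, below every ileum without antibiotic, with 1 of 9 genes lower in limma. The part of these cell types in the Ly6c values was not tested.

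Ly6d, a marker of early B-lineage cells and of keratinocytes, varied by array rather than by group. Its values were 9.60, 10.55, 9.34 and 9.46 in colons without antibiotic and 9.21, 9.23 and 10.45 in vancomycin colons. Ilea were at 9.43, 8.45 and 9.16 without antibiotic and 12.05, 9.10 and 8.52 with vancomycin. All groups overlapped, and the highest array of all was replicate 11 of the vancomycin ileum.

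The ileal change of Ly6d was 0.88 ± 0.69 (SE, limma adjusted p = 0.694), with a 95% interval from -0.61 to 2.36. Without replicate 11 it was -0.20 (adjusted p = 0.920). Colon minus ileum was 0.72 ± 0.65 without antibiotic (limma adjusted p = 0.519) and -0.26 ± 0.69 with vancomycin (limma adjusted p = 0.865), the latter 0.82 without replicate 11.

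The 3 arrays with the highest Ly6d were also those with the highest mean over 9 B cell markers. That list mean was 10.09 in the vancomycin ileum replicate 11, 8.73 in the vancomycin colon replicate 14 and 8.45 in the colon without antibiotic replicate 2. It was 7.21 to 7.96 in the other 10 arrays. In the ileal comparison 0 of the 9 markers passed in limma, where 0.536% of all probe sets did, with a median change of 0.65. Without replicate 11 the median was -0.17, with 0 of 9 past the threshold, so the sign rests on that array. The part of B cells in the Ly6d values was not tested.

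**Figure D2:**
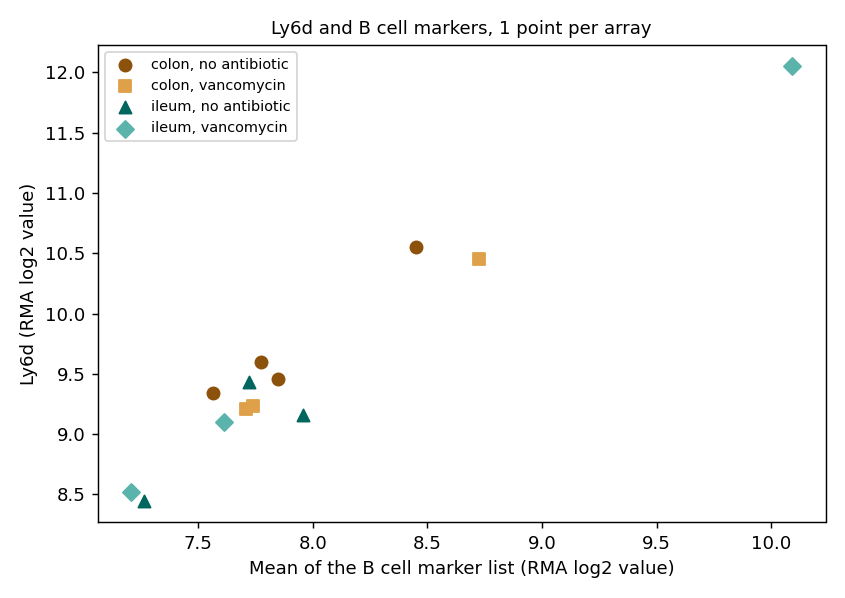
Ly6d (y axis, RMA log2 value) is plotted against the mean of 9 B cell markers (x axis, RMA log2 value), with 1 point per array and 1 symbol per group. The arrays at 10.45, 10.55 and 12.05 for Ly6d are the 3 with the highest B cell list means, and they come from 3 different groups.

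Ly6e is an interferon-inducible member that is widely expressed. It was at 16.09, 16.14, 15.83 and 16.30 in colons without antibiotic, 15.71, 15.50 and 15.18 in vancomycin colons, 15.48, 14.98 and 15.21 in ilea without antibiotic and 15.68, 14.23 and 14.38 in vancomycin ilea. Colons without antibiotic lay above every other array, and in the ileum the vancomycin group held both the highest and the 2 lowest values. Values above 16 exceed the log2 limit of a 16-bit scan, and the labels do not say how they arose.

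The ileal change of Ly6e was -0.46 ± 0.30 (SE, limma adjusted p = 0.634) and -0.92 without replicate 11 (adjusted p = 0.0507). With array weights, which count that array less, it passed (-0.86, adjusted p = 0.0203). The colonic difference was -0.63, without overlap. Colon exceeded ileum by 0.87 ± 0.28 without antibiotic (limma adjusted p = 0.0444), a call that was lost on leaving out any 1 array of the comparison except colon replicate 3, with an adjusted p of up to 0.162. Under vancomycin the tissue difference was 0.70 ± 0.30 (limma adjusted p = 0.154), and 1.16 without ileum replicate 11 (adjusted p = 0.000788).

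The mean of 18 interferon-stimulated genes was also read, since Ly6e responds to interferon. It was 8.71 to 9.10 in ilea without antibiotic and 7.78 to 8.46 in vancomycin ilea, with 2 of the 18 lower in limma and a median change of -0.60 (3 lower and -0.69 without replicate 11). With all arrays 0.485% of all probe sets were lower in that comparison. In the colon the list mean was 8.01 to 8.45 without antibiotic and 7.55 to 7.85 with vancomycin, with 0 past the threshold, where 0.0102% of all probe sets passed. In neither tissue did the treatments overlap, and vancomycin arrays were the lower. No share of gene lists with means that do not overlap was computed for comparison. Between tissues without antibiotic the list ran opposite to Ly6e, with 5 of 18 lower in colon and 1 higher in limma. Over all probe sets 9.59% were lower and 11% higher there. Replicate 11 of the vancomycin ileum, where Ly6e was high, had a list mean of 8.01. Its part in the Ly6e values was not tested.

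Lypd8 separated the tissues and was close to constant in the colon. It was at 16.70, 16.81, 16.79 and 16.74 without antibiotic and 16.51, 16.97 and 16.90 with vancomycin there, a difference of 0.03 with overlapping groups. Ilea were at 16.03, 15.31 and 15.63 without antibiotic and 15.04, 15.26 and 15.44 with vancomycin. The ileal change was -0.41 ± 0.19 (SE, limma adjusted p = 0.483), with an unadjusted 95% interval from -0.81 to -0.01 and overlapping groups. Without replicate 11, the lowest Lypd8 array, the change was -0.31 (limma adjusted p = 0.659). With any 1 ileal array left out it ran from -0.58 to -0.22.

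Colon exceeded ileum in Lypd8 by 1.10 ± 0.17 without antibiotic (limma adjusted p = 0.000371) and by 1.55 ± 0.19 with vancomycin (limma adjusted p = 4.85e-05). Both calls were kept in every alternative run for them. The colonic values lie above 16 too, and whether differences are compressed there was not tested.

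Read together by comparison, 0 of 8 members passed in the ileum, where 0.536% of 19572 probe sets did (0.0511% higher, 0.485% lower), and 1 of the 8 had an unadjusted p under 0.05 in limma, against 10.1% of all probe sets. One member, Ly6g6e, had ileal groups without overlap, against 16.9% of all probe sets (8.34% lower, 8.57% higher). The members' median ileal change was 0.09, against 0.02 over all probe sets. The members ranged from -0.46 for Ly6e to 0.88 for Ly6d.

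Between tissues without antibiotic, 5 of the 7 members tested were higher in colon (Ly6g6e, Ly6c1, Ly6c2, Ly6e, Lypd8) and 0 were lower, where 20.5% of all probe sets were called, 11% higher in colon and 9.59% lower. The same 5 had groups without overlap, against 32.2% of all probe sets (18.1% higher, 14.1% lower). The median difference of the 7 was 1.10, against 0.04 over all. Under vancomycin 3 of 7 were higher (Ly6g6d, Ly6g6e, Lypd8), and 0 lower, where 15.1% of all probe sets were called, 7.45% higher and 7.67% lower, and the median of the 7 was 0.77 against 0.04. The groups of these 3 did not overlap, against 27.4% of all probe sets (15.3% higher, 12.1% lower). That call count was 6 without ileum vancomycin replicate 11 and 2 without ileum vancomycin replicate 13. The 2 comparisons use different arrays and each stands by itself.

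**Figure D3:**
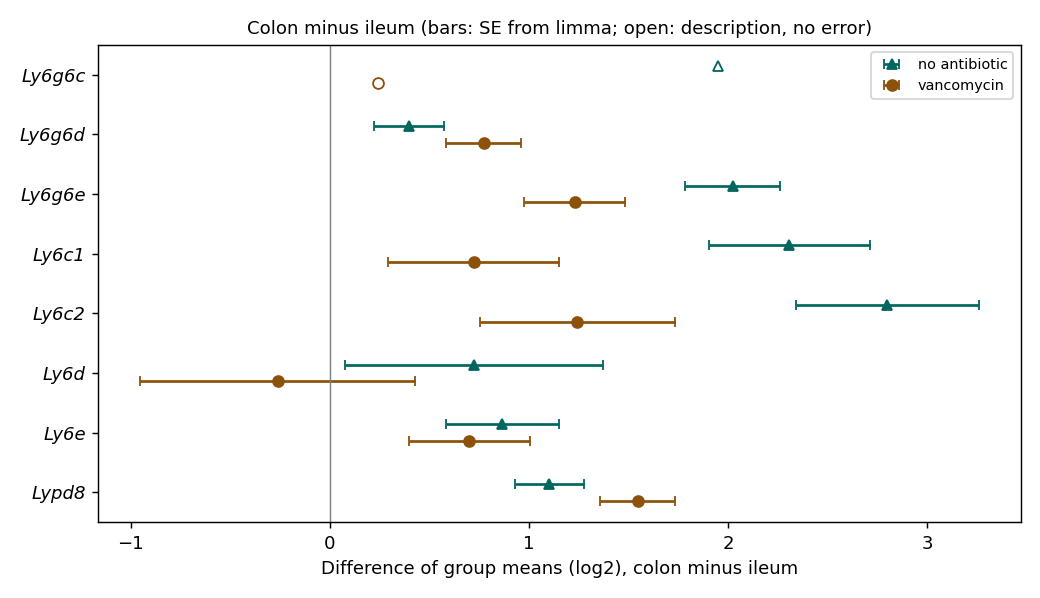
For each member the x axis gives the difference of group means, colon minus ileum, in log2 units without antibiotic (triangles) and with vancomycin (circles), with bars of 1 SE from limma and open symbols for Ly6g6c, which was not tested. Ly6g6c goes from 1.95 to 0.24 and Ly6c1 from 2.31 to 0.72, while Lypd8 is at 1.10 and 1.55.

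In the colon, the comparison that chose the list, 5 of 8 members had groups without overlap: Ly6g6c, Ly6g6e, Ly6c2 and Ly6e lower with vancomycin and Ly6g6d higher. Over all probe sets 12.3% had none (5.57% lower, 6.72% higher), and 0.0102% were called in limma. The members' differences ran from -1.70 for Ly6g6c to 0.54 for Ly6g6d. These are values only, since the same arrays led to the list.

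**Figure D4:**
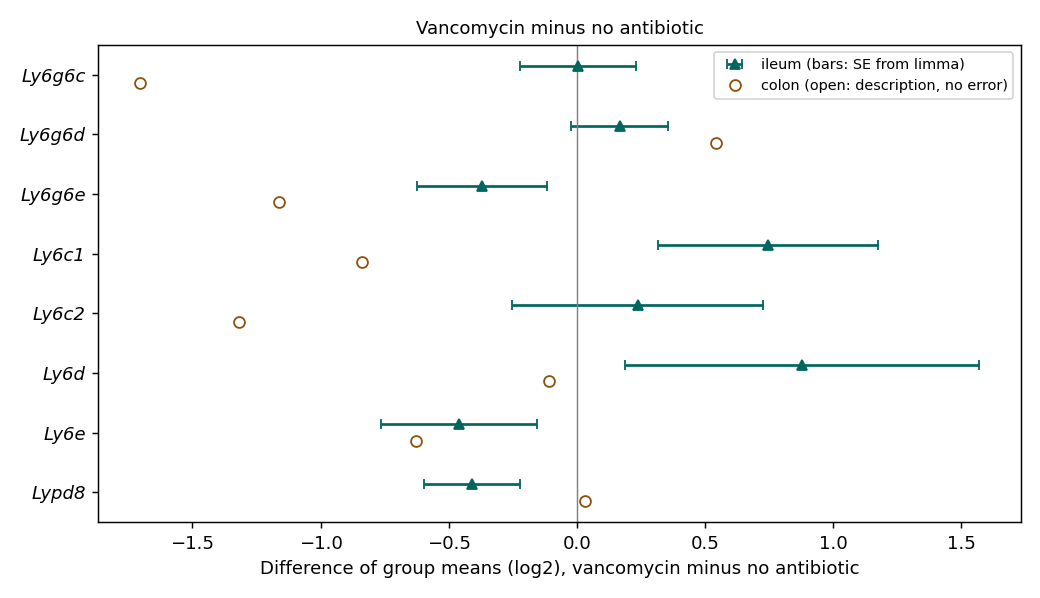
For each member the x axis gives the difference of group means, vancomycin minus no antibiotic, in log2 units, in the ileum (triangles, bars of 1 SE from limma) and in the colon (open circles, description without error). The ileal triangles lie between -0.46 and 0.88, and the colonic circle of Ly6g6c is the lowest point at -1.70.

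The rest of the Ly6/uPAR family was read from a list of 38 genes, of which 35 had a probe set. Whether each protein on it holds an LU domain was not checked. In the ileum 1 of 35 (2.86%) passed in limma, lower with vancomycin, against 0.536% of all probe sets, and the list's median change was 0.01. That gene was Gml, which encodes a glycosylphosphatidylinositol-anchored LU protein. It was at 7.78, 7.67 and 8.08 in ilea without antibiotic and at 5.26, 5.91 and 5.81 in vancomycin ilea. Colons were at 5.92, 5.48, 5.53 and 5.14 without antibiotic and 5.24, 5.81 and 5.78 with vancomycin.

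Gml in the vancomycin ileum thus lay within the range of the colons. It fell by 2.18 ± 0.23 (SE, limma adjusted p = 0.000406), and by 1.98 to 2.31 with any 1 ileal array left out, the adjusted p staying at or below 0.0292 over 12 alternatives. The filter on the dimmest probe sets removes Gml, so that alternative gave no value for it. The colonic difference was 0.09. The difference between the tissues' changes was -2.28 ± 0.32 (SE, limma adjusted p = 0.0108), where 0.189% of all probe sets passed that test, which was chosen after the values were seen. That test contains the ileal contrast that singled out Gml. Its neighbour and copy Gml2 was dimmer, at 4.47 ± 0.32 in ilea without antibiotic and 3.82 ± 0.15 (SD, n = 3 each) in vancomycin ilea, and differed by -0.65 ± 0.17 (SE, limma adjusted p = 0.143). Signal shared between these copies cannot be told apart here.

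In the ileum 5 of 35 (14.3%) had groups without overlap, against 16.9% of all probe sets. Beside Gml and Gml2, and named after their values were seen, these were Plaur, the urokinase receptor (-0.53), and Ly6g5b (-0.45), lower with vancomycin, and Cd59b, a complement inhibitor (0.50), higher. None of these 3 passed in limma. Ly6m, also chosen afterwards, was at 14.36, 14.41 and 14.47 in ilea without antibiotic and at 9.65, 14.47 and 15.20 in vancomycin ilea. The low value is again replicate 11. In colons Ly6m was at 12.03 to 12.48 without antibiotic and 10.16 to 11.02 with vancomycin, without overlap.

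**Figure D5:**
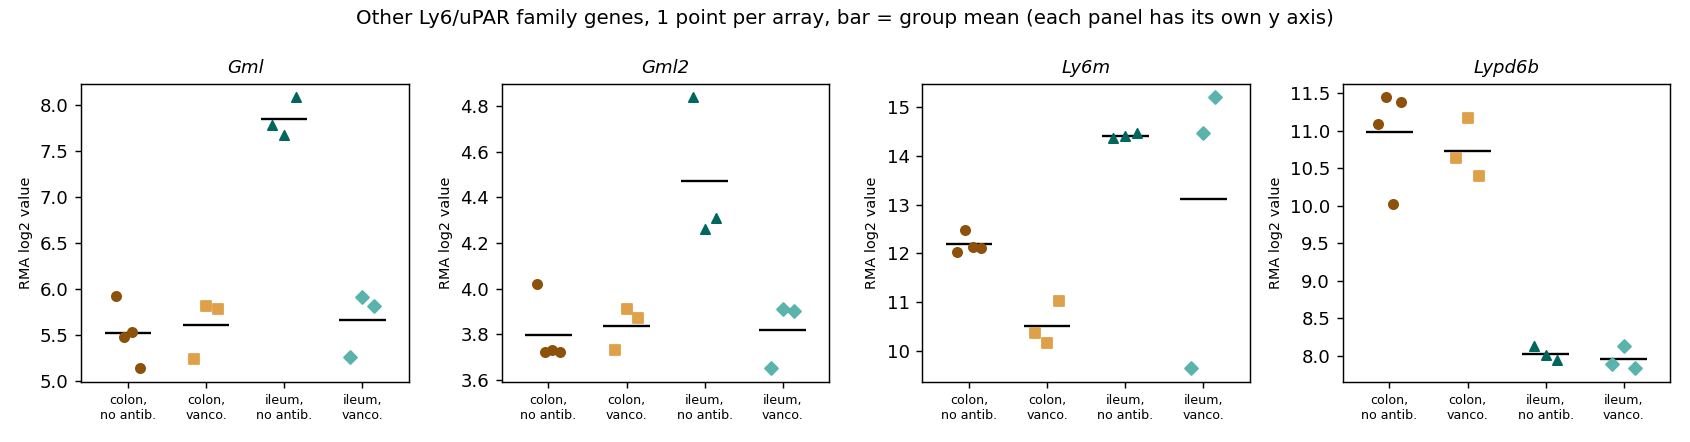
The 4 panels plot Gml, Gml2, Ly6m and Lypd6b by group, with the RMA log2 value on the y axis (own range per panel), 1 point per array and a bar at the group mean. Gml is at 7.67 to 8.08 in the ileum without antibiotic and at 5.14 to 5.92 in all other arrays, and 1 vancomycin ileum has Ly6m at 9.65.

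Between tissues without antibiotic, 6 of the 35 (17.1%) passed in limma, 4 higher in colon and 2 lower, against 20.5% of all probe sets. The higher genes were Lypd6b, a modulator of nicotinic receptors (2.96 ± 0.29, SE, adjusted p = 3.76e-06), Ly6g6f (above), and Lynx1 (1.24) and Ly6i (0.77), the last 2 named after their values were seen. Gml (-2.33 ± 0.22, adjusted p = 2.46e-06) and Gml2 (-0.67 ± 0.16, adjusted p = 0.00672) were lower in colon. Under vancomycin 2 of 35 (5.71%) passed, against 15.1% of all probe sets, both higher in colon: Lypd6b (2.79 ± 0.31, adjusted p = 1.90e-05) and Ly6f (0.66 ± 0.17, adjusted p = 0.0161). The Ly6f call was lost without colon vancomycin replicate 13 or 14 or ileum vancomycin replicate 14, and in a fit of these groups alone (adjusted p = 0.0511 to 0.0774). The list's median difference was -0.01 without antibiotic and 0.02 with vancomycin.

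The profile of Ly6g6c over the 13 arrays was set beside every other named gene, each centred on its own mean, by the root mean square difference of the values. The 5 nearest genes were Riiad1 (0.35), Agbl2 (0.42), Upk1a (0.43), Foxa3 (0.45) and Cpn1 (0.47), as a description with no test. Their vancomycin minus no antibiotic differences in the colon ran from -0.68 for Upk1a to -1.41 for Cpn1, and in the ileum from -0.27 for Foxa3 to 0.21 for Cpn1. The ranking used these same arrays, so differences close to those of Ly6g6c follow from it. Among the members, Ly6g6e was the nearest at 0.59, rank 119 of 18543 genes, and Ly6d the farthest at 1.28.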

How the data were processed

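The authors deposited log2 values per probe set and array. The submitters' processing notes name Affymetrix Expression Console 1.4.1.46 and RMA, without their roles or the annotation build. RMA evens out the arrays' distributions, so a difference is relative to all probe sets of an array. Of 28846 probe sets, 19572 had 1 gene symbol in the platform annotation and entered the fits. The highest-mean probe set stood for a gene.

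A limma 3.58.1 model (lmFit and eBayes in R 4.3.3) held 1 mean for each of the 4 groups over the 13 arrays, with Benjamini-Hochberg adjustment over the 19572 probe sets. The number of arrays limits the precision, and whether each array is a different mouse is unlabelled; the p-values rest on a spread that may be technical. On simulated data with 19572 genes, of which 200 were changed, changes of 1 and 2 log2 units were called for 69% and 96% of the changed genes in the ileal comparison, in 77% and 99% for the tissues without antibiotic and in 72% and 99% under vancomycin. False calls made up 3.51%, 6.38% and 6.56% of calls. The simulated noise was independent between genes, with no array that shifts many genes together. These rates may therefore not hold for the real arrays.

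The members and all gene lists were chosen with earlier results of these data known. Named genes are the members, other family genes past the threshold in the ileum, up to 4 per tissue comparison by smallest p, and the 5 profiles nearest to Ly6g6c, passing over predicted genes. The other lists used are those printed in the text and, for neutrophils, colonocytes and Paneth cells, in the closing section.

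Colon and ileum arrays share numbers in their titles. Deviations from the group means correlated between same-numbered arrays at 0.236, 0.176 and 0.107 for the vancomycin pairs, each above 0.1. For colon replicate 13 an ileum of another number reached 0.149, so these correlations do not settle the pairing. The main tests do not use the number. A fit with the number as a block was an alternative and is given where a call changed.

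Alternatives were a fit of the compared groups alone, array weights, a trended robust prior, renewed quantile normalization, median centring, a filter on the dimmest 33.3% of probe sets, each array left out, and the replicate number as a block. No gene of the list had several probe sets, so averaging them was not needed.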

Additional observations from a re-analysis of the deposited data

Results flagged for a closer look

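In the colon without antibiotic, the group of 4 arrays, 2 of 13 genes checked had 1 array far from the rest by Dixon's ratio of gap to range: Ly6g6d with 0.840 (replicate 5 low at 11.07) and Gml2 with 0.967 (replicate 1 high at 4.02), both above the critical value for 4 arrays. Chance flags about 1 in 20 such groups. Without that array the colonic difference of Ly6g6d was 0.43.

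The change of Gml with vancomycin differed between the tissues: ileum minus colon was -2.28 (limma interaction, adjusted p = 0.0108), with every vancomycin ileum below every ileum without antibiotic and overlapping colon groups. That test was chosen after the values were seen and contains the ileal contrast that singled out Gml, so it is no separate support.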

How the results depend on the processing

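In the ileum, 0 members passed in the fits run except with array weights (1, Ly6e). Over all probe sets 105 passed, 20 in the ileum alone (2 higher, 18 lower), 1012 with array weights (478 higher, 534 lower) and 40 to 172 with 1 array left out. Among the other family genes 1 passed, 4 with array weights and 0 without the dimmest probe sets, a filter that removes Gml and, among the members, Ly6g6e. The ileal change of Ly6g6c (0.00) was -0.0012 with array weights, -0.037 after renewed quantile normalization, -0.02 after median centring and -0.16 to 0.15 with 1 array left out. With array weights Ly6g6d turned to -0.0495 and Ly6c2 to -0.13. With 1 array left out Ly6c2 ran from -0.28 to 0.59 and Ly6d from -0.20 to 1.56. Between tissues without antibiotic, 4 or 5 members passed with 1 array left out, and 2 other family genes without the dimmest probe sets. Under vancomycin 2961 probe sets passed, 1875 in those groups alone and 4903 with array weights. There 6 members and 6 other family genes passed with array weights, 1 other family gene in those groups alone, and 2 to 6 members and 1 to 5 other family genes with 1 array left out. Ly6d in that comparison turned to 0.37 with array weights and ran from -0.94 to 0.82 with 1 array left out. In the colon comparison 2 probe sets passed, 0 in the colon alone, 38 with array weights, 0 after median centring, 1 without the dimmest and 0 to 217 with 1 array left out. Causes of these shifts were not tested.

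With the replicate block, 104 probe sets passed in the ileum (random block, correlation 0.0975), 3669 between tissues without antibiotic and 2923 under vancomycin. Without antibiotic the same-numbered pairs correlated at 0.0754, 0.0302 and -0.0162, each below 0.1, which does not show a pairing. There a fixed block gave 6 members, with Ly6g6d added at 0.51 (adjusted p = 0.0448). Colon replicate 5 has no ileum of its number, so this block gives that array no weight in the difference. Leaving out that array without a block gave the same 0.51 for Ly6g6d (limma adjusted p = 0.0579). Under vancomycin the block added Ly6c2 (4 members), and it changed no other member's call. Of 381 tested values of single genes under alternatives, 348 kept direction and side of the threshold, 12 lost the call, 10 gained it and 11 changed sign. Of 99 untested values, 6 changed sign, all of Ly6d and Lypd8 in the colon.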

Other observations

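Neutrophil markers, of interest beside Ly6g, gave list means of 5.82 to 6.18 over the 13 arrays. In limma 1 of 12 was higher in colon without antibiotic (11% of all probe sets were) and 0 passed in the ileum (0.536% of all probe sets did). In the ileum, 0 genes passed in the lists of Paneth cells (10 genes, median -0.01, and -0.31 without vancomycin replicate 11), goblet cells (12, 0.02 and 0.06), ileal enterocytes (12, -0.16 and 0.11) and smooth muscle (10, 0.78 and 0.36), with that array or without it. T cells (10, -0.42 and -0.66) had 0 lower with it and 2 without it, plasma cells (9, -0.53 and -0.65) 1 and 3, and colonocyte markers (12, -0.11 and 0.10) 1 and 1. These values without the array were added after the data were seen.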
